A study of Mus musculus with 4 samples.

Results

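The annexin gene family was examined in ureters of mouse embryos in which the ΔN form of the transcription factor p63 had been targeted. The members were all probes whose gene name in the scanner files is one of 10 listed annexins (Anxa1 to Anxa9 and Anxa11). They comprised 15 of the 39429 gene probes, and all 15 and all 10 genes passed the filter on dim probes, among 21518 genes tested. The family was selected on one measured value, the low ratio of Anxa8 in cKO over control RNA. Every value of that contrast is therefore given here as a description. The difference between Anxa8 and the other members was not tested.

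Total RNA came from ureters of NMRI embryos at E15.5. The cKO embryos were Pax2-cre/+; Trp63(dN-flox/dN-flox), and the control embryos were Trp63(dN-flox/?), with at least 1 floxed allele, an unstated other allele and no cre listed. All embryos thus carried a floxed allele, while the cre transgene was listed for cKO RNA alone, so that an effect of the transgene and of losing ΔNp63 cannot be told apart. Each of 4 arrays paired 1 cKO RNA with 1 sex-matched control RNA. The embryos of replicates 1 and 2 were female and those of 3 and 4 male, and the cKO RNA was red (AlexaFluor647) in replicates 1 and 3 and green (AlexaFluor555) in replicates 2 and 4. No label says whether each RNA came from a separate embryo or a pool, so p-values measure the spread between these RNAs.

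Annexins are proteins that bind acidic phospholipids of membranes when calcium rises, through a conserved core of repeats that follows a variable N-terminal tail. The tail recruits partners such as small S100 proteins, and members of the family take part in membrane repair, vesicle traffic and the binding of plasminogen at the cell surface. Annexin A8 is best known from stratified and squamous epithelia. The ureter is lined by urothelium, whose basal cells express p63, and is wrapped in mesenchyme that forms smooth muscle.

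Since every value rests on short probes, the longest runs of bases that annexin probes share are shown first. Probes were compared with each other and not with the transcripts of other annexins. Whether a probe also binds the transcript of a relative was therefore not tested. The probes are 60 bases long, and a stretch of 30 bases is given 5′ to 3′ around the longest run, in capitals, that the probe shares with a probe of any other annexin.

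Anxa8 probe A_51_P207591: tgaagaacatgaCAGAACTcttctcaatat

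Anxa8 probe A_55_P1965338: gcaaacggaaacatcaacatgaAGAAAGAA

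Anxa9 probe A_55_P2092869: caaatctcagGAAAGAAGTTTtatttccaa

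Anxa1 probe A_55_P2092826: ccattcctgaGAAAGAAGTTTacatataat

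The brighter Anxa8 probe shared at most 7 bases in a row with any other annexin probe, and the other Anxa8 probe at most 8. The longest shared run in the family was 11 bases, between the probes of Anxa1 and Anxa9 printed above. Per the array's design, the Anxa8 probes lie on the plus strand of chromosome 14 at chr14:34913661-34913720 and chr14:34913148-34913207 (build mm9), starting at bases 1785 and 1272 of the transcript. Both are thus exonic. Whether they lie in the coding part or a UTR was not analysed here. The Anxa9 probe lies at chr3:95100039-95100098 and the Anxa1 probe at chr19:20447938-20447997, both on the minus strand.

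Anxa8 was far lower in the cKO RNA of every array. Its brighter probe had normalised log2 intensities of 14.76, 14.58, 15.18 and 14.93 in the control RNAs of replicates 1 to 4. In the cKO RNAs the same probe had 12.29, 12.89, 12.76 and 12.28. The groups did not overlap, and all 8 RNAs were well above background, so the transcript was still measured in cKO ureters. As log2 ratios of cKO over control, the arrays gave -2.47, -1.68, -2.42 and -2.65. They averaged -2.31 ± 0.43 (SD, n = 4), a level 4.95-fold lower in cKO. Replicate 2 had the smallest difference of the 4 arrays. Spots of this probe within an array differed by an SD of at most 0.04, so the spread lay between arrays. Of 21518 genes, only 1 had a lower mean ratio than this probe. That rank is of ratios as measured, and the offset of the background correction pulls those of dim probes towards 0. In whole ureters, fewer cells with a transcript and less of it per cell cannot be told apart, which holds for every gene here.

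The other Anxa8 probe was also lower in the cKO RNA of every array. Its levels were 13.95, 13.80, 14.36 and 14.12 in control and 11.93, 12.27, 12.32 and 11.89 in cKO RNA. Its ratios were -2.02, -1.53, -2.03 and -2.23, a mean of -1.95 ± 0.30, and replicate 2 was again the least changed. The 2 probes thus gave the same direction on all 4 arrays and differed in size.

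**Figure D1:**
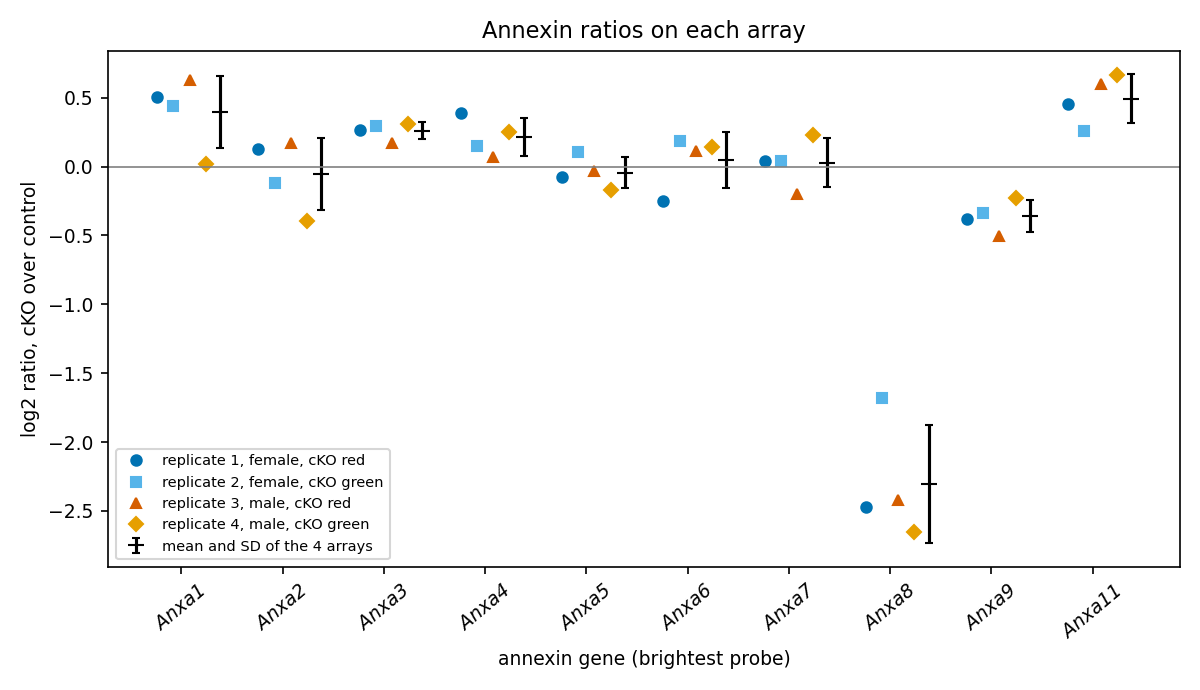
Log2 ratio of cKO over control (y axis) for the brightest probe of each of the 10 annexins (x axis), with a symbol for each array and a black bar for the mean and SD of the 4 arrays. The Anxa8 points lie between -2.65 and -1.68, and the points of the other 9 genes between -0.50 and 0.66.

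No other member came near these ratios. The lowest ratio of the other 9 genes on any array was -0.50 (Anxa9) and the highest 0.66 (Anxa11), while the highest of Anxa8 was -1.68. The ratio of Anxa8 minus that of another member, taken within each array, averaged from -2.80 ± 0.60 for Anxa11 to -1.95 ± 0.45 for Anxa9 (SD, n = 4). It was below 0 on all 4 arrays for each of the 9. The median mean ratio was 0.04 over the 10 members, 0.05 without Anxa8 and -0.000239 over all genes.

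In the fit across all genes (limma, Benjamini-Hochberg adjusted p under 0.05), 1 of the 10 members was lower, Anxa8, and 0 were higher. At an unadjusted p under 0.05 there were 6, and 1729 of all genes (8.04%). Among all genes 0.697% were called lower and 0.497% higher. The contrast chose the family, so nothing is read from these counts. They also depended on single arrays: without replicate 2, Anxa9 was also called lower and Anxa11 higher, and without replicate 4, Anxa9 lower and Anxa1 and Anxa11 higher. In both of those fits the dye term fits 1 array exactly, and only replicates 1 and 3 inform the residual spread. Without a filter on dim probes, and in the deposited value table fitted on all kept probes, 0 members were called (limma), with 6 and 5 at an unadjusted p under 0.05. Among all genes those fits called 55 and 0 lower, and 31 and 1 higher. On the probes of the deposited table with no value at 0, a fit added after that outcome, Anxa8 was called.

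Anxa9 was the other member with a lower level on every array. Annexin A9 is an unusual family member whose core has lost calcium-binding residues. Its levels were 11.47, 11.31, 11.73 and 11.43 in control and 11.10, 10.98, 11.23 and 11.20 in cKO RNA, without overlap. The ratios of -0.38, -0.33, -0.50 and -0.23 had a mean of -0.36 ± 0.11, 1.28-fold lower, which did not pass the threshold. A pair of members was thus below 0 on all 4 arrays, as were 7.65% of all genes.

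A further 4 members, Anxa1, Anxa3, Anxa4 and Anxa11, had ratios above 0 on all 4 arrays, and 7.69% of all genes did. None of these passed the threshold. Anxa11, whose long N-terminal tail binds the calcium sensor encoded by Pdcd6, had levels of 14.07, 14.22, 13.82 and 13.65 in control and 14.52, 14.48, 14.42 and 14.31 in cKO RNA. Its ratios were 0.45, 0.26, 0.60 and 0.66, a mean of 0.49 ± 0.18 or 1.41-fold, with no overlap of the groups. Its second, much dimmer probe gave 0.07, 0.07, 0.24 and 0.32, a mean of 0.18 ± 0.13, and the groups overlapped.

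Anxa1 encodes a protein known for dampening inflammation through formyl peptide receptors. Its levels were 15.96, 16.11, 16.04 and 16.25 in control and 16.46, 16.55, 16.66 and 16.26 in cKO RNA, which did not overlap by a margin of 0.02. The ratios were 0.50, 0.44, 0.63 and 0.02, a mean of 0.40 ± 0.26. Replicate 4 held almost no difference at this probe, whereas the second Anxa1 probe gave 0.23 there and a mean of 0.31 ± 0.08.

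Anxa3 had the tightest ratios of the family, 0.27, 0.29, 0.17 and 0.31, a mean of 0.26 ± 0.06. Its levels were 14.03 to 14.31 in control and 14.31 to 14.48 in cKO RNA. The groups only just failed to overlap, with a highest control level of 14.3092 and a lowest cKO level of 14.3134. Anxa4, an annexin of secretory epithelia, had ratios of 0.39, 0.15, 0.07 and 0.25, a mean of 0.21 ± 0.14, and overlapping groups. Its second, dim probe, well above background in the control RNA on 3 of 4 arrays, had a mean of 0.01 ± 0.08.

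The remaining 4 members had mean ratios from -0.05 to 0.05 and ratios of both signs. Anxa2, whose product pairs with S100A10 and binds plasminogen, had ratios of 0.13, -0.12, 0.17 and -0.39, a mean of -0.05 ± 0.26. Its ratio was above 0 where the cKO RNA was red (mean 0.15) and below 0 where it was green (mean -0.26). Anxa5, known as a probe for phosphatidylserine on dying cells, had ratios of -0.08, 0.11, -0.03 and -0.17, a mean of -0.04 ± 0.11. Anxa6, whose core is duplicated, had -0.25, 0.19, 0.11 and 0.15, a mean of 0.05 ± 0.20. Anxa7 had 0.04, 0.04, -0.20 and 0.23, a mean of 0.03 ± 0.18, and 0.12 ± 0.17 at its second probe. For each of these 4 genes the sign changed when one or other array was left out, and the groups overlapped.

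**Figure D2:**
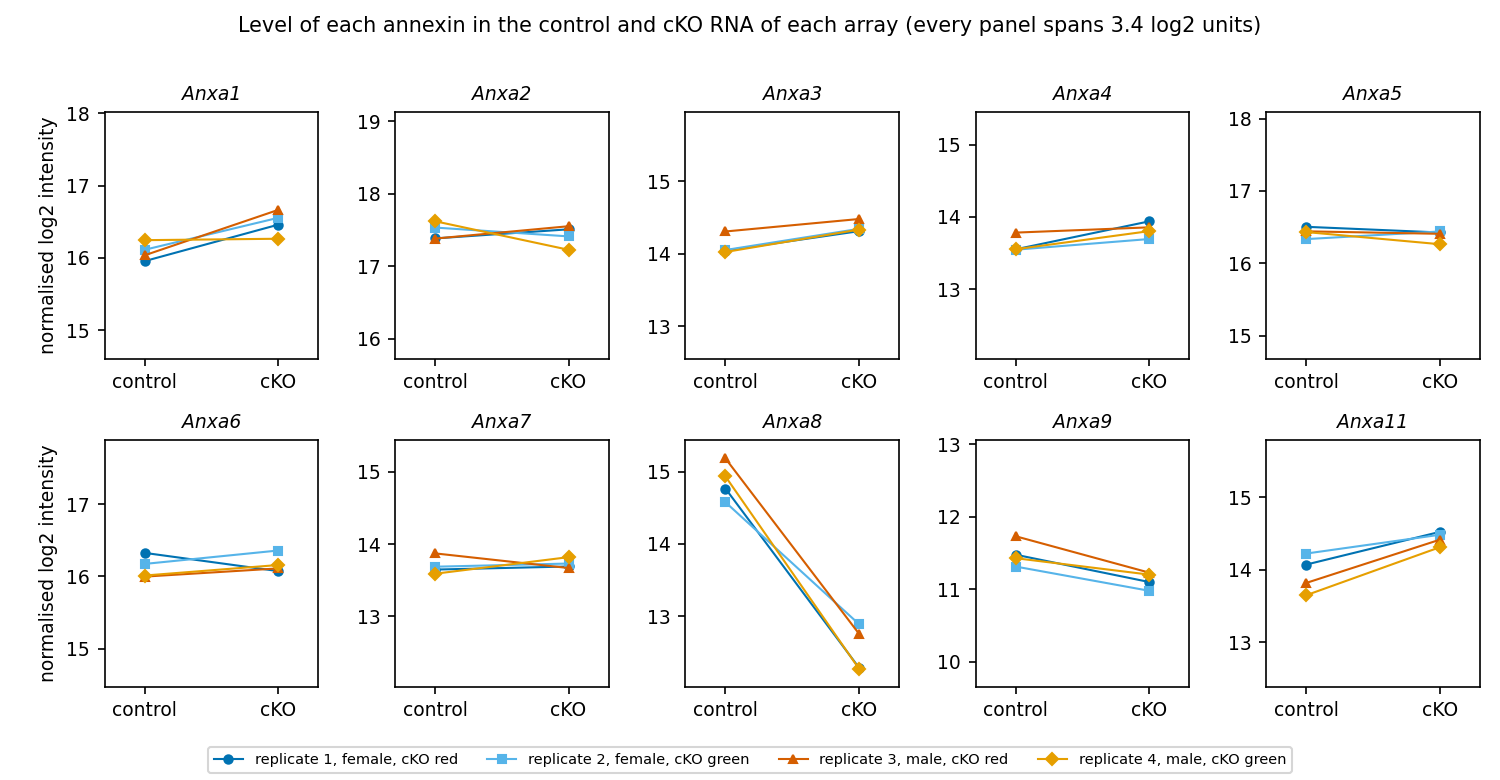
Normalised log2 intensity of the brightest probe of each annexin in the control and the cKO RNA (x axis), with a line for each array. Every panel spans the same 3.4 log2 units but starts at its own level, since levels of different probes are not comparable. The Anxa8 lines fall from between 14.58 and 15.18 to between 12.28 and 12.89, and the lines of the other members stay close to level.

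Levels of the 4 control and 4 cKO RNAs did not overlap for 5 of the 10 brightest probes (Anxa1, Anxa3, Anxa8, Anxa9 and Anxa11), and for 6.38% of all genes. For Anxa1 and Anxa3 this rested on the very small margins given above. Of 5 members with a pair of probes, the second probe had a mean ratio of the same sign for all 5. That sign says little for Anxa4, whose second probe had ratios of both signs around a mean of 0.01 ± 0.08. It says little for Anxa7 as well, since both probes had ratios of both signs. The second probes of Anxa4 (mean levels 6.76 in cKO and 6.76 in control) and Anxa11 (7.30 and 7.13) were dim. The second probe lay closer to 0 for Anxa1, Anxa4, Anxa8 and Anxa11 and farther from 0 for Anxa7.

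**Figure D3:**
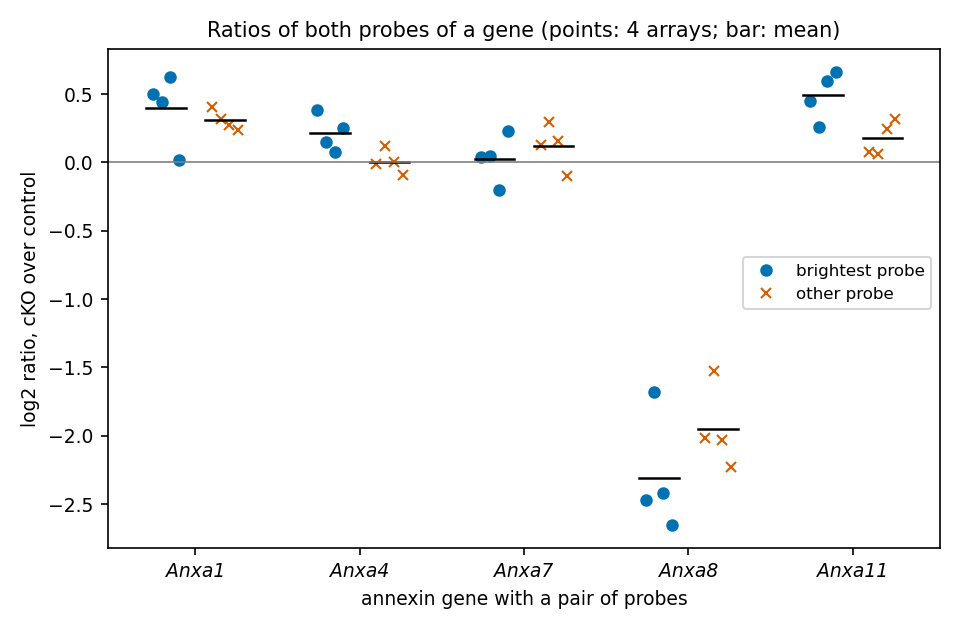
Log2 ratio of cKO over control (y axis) at both probes of the 5 annexins that have a pair (x axis). Points are the 4 arrays and bars their mean, with the brightest probe as circles and the other as crosses. Both Anxa8 probes lie at or below -1.53 on every array, and the remaining 8 probes at or above -0.20.

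Sex and dye are contrasts that played no part in choosing the family. The mean ratio of Anxa8 was -2.08 in the female and -2.54 in the male arrays. That difference did not pass the test of a cKO-by-sex coefficient (limma, adjusted p = 1), which had 1 residual degree of freedom for each gene and borrowed its spread from all genes. Of the 10 members 0 passed this test, against 0.0697% of all genes. With an unadjusted p under 0.05 there were 0 members and 202 genes (0.939%), so few genes of any kind reached it. Of the 10 members 0 had a dye effect in the main fit (limma), as had 0% of all genes. At an unadjusted p under 0.05 there was 1 member, Anxa2, and 430 genes (2%). Anxa8 had a mean ratio of -2.45 with the cKO RNA in red and -2.17 with it in green.

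By their ratios on the 4 arrays, the genes most like Anxa8 were 5 others with large decreases. The measure was the Euclidean distance between the 4 log2 ratios of a gene and those of Anxa8. The nearest was Serpinb5, the serpin maspin, at a distance of 0.23, with ratios of -2.41, -1.89, -2.47 and -2.62. It was followed by Perp, a desmosome-associated membrane protein, at 0.42, Pkp1, a desmosomal plaque protein, at 0.76, Krt5, the keratin of basal cells, at 0.91, and Dapl1 at 1.07. In 4 of these 5 genes, Dapl1 excepted, replicate 2 had the ratio nearest to 0, as in Anxa8. The genes were picked by these same ratios, so this shared order is no separate finding. Of the other basal urothelium markers given below, Krt15, Cdh3, Itgb4 and Trp63 had it as well, and Krt14 did not. The likeness rests on 4 arrays, and the distance measures the size of a decrease as well as its order over arrays.

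The markers of basal urothelium, listed with earlier results of these data known, moved together with Anxa8. All 6 of them (Trp63, Krt5, Krt14, Krt15, Cdh3 and Itgb4) were lower in cKO (limma, adjusted p from 0.00190 to 0.0140), against 0.697% of all genes. The median ratio of the 6 was -1.41. Their summed linear intensity was 8777 to 10500 in cKO and 21680 to 29180 in control RNA, and each was still measured in every cKO RNA. Trp63, the targeted gene, had ratios of -1.39, -1.18, -1.30 and -1.62. It is part of the count, the median and the sum, although its decrease does not stand apart from the design. Whether its probe lies in the deleted part was not analysed here. The mean of the brighter Anxa8 probe, -2.31, was lower than that of every one of the 6 markers, among which Krt5 was the lowest at -1.87. The Krt5 probe was dimmer, with a mean level in cKO RNA of 8.83 against 12.56 for the brighter Anxa8 probe. The offset of the background correction pulls ratios of dim probes towards 0, so this order does not show a larger fall of Anxa8 than of Krt5. The difference between these genes was not tested. The other Anxa8 probe, at -1.95, lay close to Krt5. Krt5 was lower than that probe in replicate 1 (-2.16 against -2.02) and replicate 3 (-2.07 against -2.03). How much of the Anxa8 ratio goes with the number of basal cells was not tested.

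Markers of other cells were read in the same way. Of 5 smooth muscle and mesenchyme markers 0 passed (limma), with summed intensities of 334500 to 420900 in cKO and 349700 to 401200 in control. The summed level of 4 general epithelial markers was 369100 to 396400 in cKO and 291400 to 336900 in control. Krt18, one of the 2 brightest of them, was higher (0.50 ± 0.14), and Krt8, the other, had 0.37 ± 0.19. Cdh1 had -0.40 ± 0.26, below 0 on all 4 arrays and without overlap of the groups, and Epcam -0.10 ± 0.08, and neither passed. Of 5 superficial markers Upk2 was lower and Krt20 higher, with sums of 241400 to 288800 in cKO and 252900 to 322500 in control. Of 3 proximal tubule markers Cubn was higher, and their sum was 6418 to 8453 in cKO and 2490 to 3407 in control. The others did not follow Cubn: Lrp2 had 0.37 ± 0.32 and the dim Slc34a1 -0.14 ± 0.23, with overlapping groups, and neither passed. Cubn had mean levels of 12.29 in cKO and 10.08 in control, so the sum mainly follows this gene. Of 4 skeletal muscle markers Myl1 and Ckm were lower, with sums of 21850 to 29050 and 30140 to 33940. Of 4 macrophage markers 0 passed (limma), although their sums, 15050 to 16970 in cKO and 17060 to 19890 in control, did not overlap. Of 4 endothelial and 4 neuron and glia markers 0 passed (limma), with overlapping sums. Their part in the annexin ratios was not tested.

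A list of 39 genes tied to annexin function, chosen with earlier results of these data known, was measured beside the family. In the contrast that chose the family, 38 of the listed genes could be tested. Of these, 0 were lower and 2 higher (limma, adjusted p under 0.05), against 0.697% and 0.497% of all genes. Their median ratio was 0.05, and 7 were at an unadjusted p under 0.05, as were 8.04% of all genes. The first of the 2 was Anxa13, an annexin of intestinal and kidney epithelia that is not among the 10 listed members. Its levels were 8.04, 8.37, 8.08 and 7.84 in control and 9.04, 9.06, 9.41 and 9.06 in cKO RNA, without overlap. The ratios were 1.01, 0.69, 1.32 and 1.22, a mean of 1.06 ± 0.28 (SD, n = 4), or 2.09-fold higher in 4 of 4 arrays (limma, adjusted p = 0.0140). It missed the threshold when dim probes were kept (adjusted p = 0.0960) and in the deposited value table fitted on all kept probes (adjusted p = 0.335). The latter fit called 0 genes lower and 1 higher among all genes. Repeated on probes with no value at 0, after that outcome was seen, it called Anxa13 (limma, adjusted p = 0.00479). Over all alternatives the adjusted p ranged from 1.03e-12 to 0.335. The lower end is the fit with a sex term, which has 1 residual degree of freedom for each gene and borrows its spread from all genes. It is not stronger evidence. The Anxa13 ratio was 1.33 with the scanner's processed signals and in the deposited value table. Anxa10, the remaining annexin on the array, was well above background on 1 of 4 arrays in either group and was not tested.

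The second was Trpv6, an epithelial calcium channel that the annexin A2 and S100A10 complex is known to bind. Its levels were 10.11, 10.23, 10.24 and 10.09 in control and 10.89, 10.99, 11.11 and 11.22 in cKO RNA. The ratios were 0.77, 0.76, 0.86 and 1.13, a mean of 0.88 ± 0.17 or 1.84-fold, higher in 4 of 4 arrays (limma, adjusted p = 0.0122). It missed the threshold without a filter (adjusted p = 0.0684) and with an intensity trend and robust variances together (adjusted p = 0.0542). It also missed it in the deposited value table fitted on all kept probes (adjusted p = 0.241). On the probes of that table with no value at 0 it passed (limma, adjusted p = 0.00538). The range over all alternatives was 1.25e-08 to 0.241, and its lower end is again the fit with a sex term. The related channel Trpv5 did not pass (adjusted p = 0.0615), and its control level was well above background on 1 of 4 arrays, so its ratio has no firm size. It was 0.46 in the fit used here, 0.62 without background subtraction and 1.81 with the scanner's processed signals, and the deposited value table lists it at 0. It passed in 7 of the alternatives, including the fits without replicate 2 and without replicate 4.

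The S100, receptor and plasminogen genes of the list did not pass. Of 6 S100 genes 0 passed (limma), 1 of them at an unadjusted p under 0.05. S100a10, the partner of Anxa2, had a ratio of 0.05 ± 0.14, S100a11, the partner of Anxa1, -0.01 ± 0.16, and S100a6 0.27 ± 0.06 (adjusted p = 0.267). The formyl peptide receptor genes Fpr1 and Fpr2 had ratios of -0.03 ± 0.08 and -0.04 ± 0.03. Both probes were dim, with mean levels in cKO and control of 6.90 and 6.93 for Fpr1 and 7.29 and 7.33 for Fpr2. The probe of Plg, given next, was dim as well (7.14 and 7.42). The offset of the background correction pulls ratios of dim probes towards 0, so these ratios do not show that a gene was unchanged. In the plasminogen system, Plaur, the urokinase receptor gene, had 0.40 ± 0.21 (adjusted p = 0.203) and passed without replicate 2 (0.52, adjusted p = 0.00411). The plasminogen gene Plg had -0.28 ± 0.39 (adjusted p = 0.849) and passed without replicate 4 (-0.50, adjusted p = 0.00722), and Plau had 0.11 ± 0.19.

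The genes of membrane repair and vesicle sorting given here did not pass in the main fit, with mean ratios from -0.27 (Pla2g4a) to 0.31 (Myof). Myof, encoding the membrane repair protein myoferlin, had 0.31 ± 0.29 (adjusted p = 0.601) and passed without replicate 4 (0.45, adjusted p = 0.0208). The Myof probe was dim, with mean levels of 7.44 in cKO and 7.13 in control RNA. Its ratio was 0.62 with the scanner's processed signals and 0.54 in the deposited value table. Ahnak, a large scaffold that binds annexin A2 and S100A10, had -0.15 ± 0.32, and the protease gene Capn1 -0.16 ± 0.11. Sri, encoding sorcin, which binds annexin A7, had 0.16 ± 0.16, Pdcd6ip 0.14 ± 0.13 and Chmp4b 0.06 ± 0.09. Cd63, a late endosome protein linked to annexin A8, had 0.16 ± 0.14. Pla2g4a, the cytosolic phospholipase that annexin A1 inhibits, had -0.27 ± 0.17 (adjusted p = 0.384) and passed without replicate 2 (-0.36, adjusted p = 0.0295). Of the 6 copine, synaptotagmin and extended synaptotagmin genes 0 passed, with 0 at an unadjusted p under 0.05 and ratios from -0.13 (Cpne1) to 0.12 (Esyt2).

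**Figure D4:**
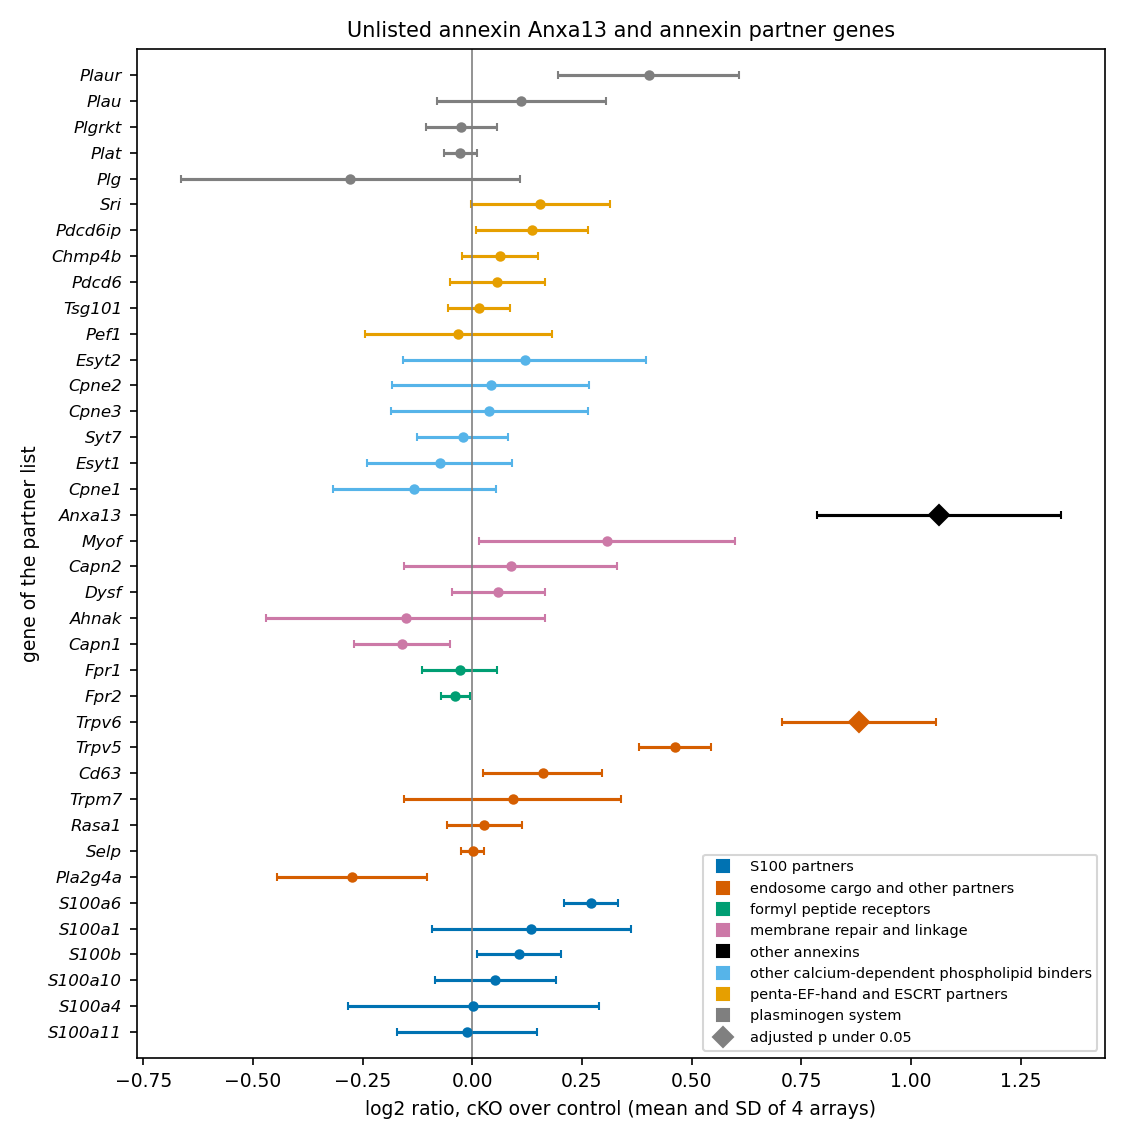
Mean log2 ratio of cKO over control with the SD of 4 arrays (x axis) for the 38 tested genes of the partner list (y axis), coloured by role. Large diamonds mark the 2 genes with adjusted p under 0.05, Anxa13 at 1.06 and Trpv6 at 0.88.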

How the data were processed

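Per the file headers, the deposited scanner output gives each spot's intensity in both channels and other columns that mark spots as well above background, nonuniform or saturated. The submitters' processing notes and the headers name Feature Extraction 10.7.3.1. Labelling started from 200 ng of total RNA, per the labels' protocols. The values of the deposited series table are log2 ratios. Regressed on the scanner's red over green ratios, their slopes of 1.002, -1, 1 and -1 give cKO over control, and each column has a median of 0. Of those values 32.4% are 0, for a reason that the sources do not give.

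Background was corrected with normexp (offset 50), ratios were normalised by loess, and the 4 spots of a probe were averaged (limma 3.58.1, R 4.3.3). A probe was kept where, in one of the groups, the share of spots above background reached 0.5 on each of the 4 arrays (28611 of 39429 probes). The brightest kept probe stood for a gene. Channel levels come after Aquantile normalisation. Median raw signals were 382 to 617, and 71.8% to 77.0% of the spots of gene probes exceeded background. All arrays lay on 1 slide with 1 scan date. The number of arrays limits precision. Symbols were found in a reference table (GRCm38.p6) for 30385 probes, 1343 were named by accession and 7701 kept the file's name.

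The fit across all genes had a cKO and a dye coefficient, and was tested on simulated data. There it called 30.15% of 1.5-fold, 60.9% of 2-fold and 91.21% of 4-fold changes, and 0.01% of unchanged genes. A gene with a small ratio that did not pass is therefore not shown to be unchanged. Each array holds its own pair of RNAs. Named are all member probes, partner genes past the threshold with up to 3 others per role, and the 5 genes nearest to Anxa8. A few more list genes are given as examples, chosen after their values were seen. Members and lists were chosen with earlier results of these data known. The alternatives are compared in the closing section.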

Additional observations from a re-analysis of the deposited data

Results flagged for a closer look

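In the probes examined here, 129 groups of 4 values (ratios, cKO levels and control levels of 43 probes) were searched for a single value far from the others, and 10 were found. Chance flags about 1 in 20 such groups.

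Among the annexins, the second Anxa1 probe had a cKO level of 14.33 in replicate 4 against 14.62 to 14.65 in the others. The control level of Anxa3 was 14.31 in replicate 3 against 14.03 to 14.05, and that of Anxa4 13.78 in replicate 3 against 13.55 in the others. The Anxa6 ratio was -0.25 in replicate 1 against 0.11 to 0.19. The cKO level of Anxa13 was 9.41 in replicate 3 against 9.04 to 9.06.

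Among partner genes, the S100b ratio was -0.036 in replicate 4 against 0.15 to 0.16, the Pla2g4a ratio -0.0201 in replicate 2 against -0.38 to -0.33, and the Ahnak control level 15.08 in replicate 2 against 15.36 to 15.41. Of the genes nearest to Anxa8, Krt5 had -1.24 in replicate 2 against -2.16 to -2.01, and Perp -1.58 in replicate 2 against -2.32 to -2.30. Chmp4b had ratios below 0 on both female and above 0 on both male arrays, with a female minus male difference of -0.15 (means -0.01 and 0.14). The cKO-by-sex coefficient of Chmp4b did not pass (limma, adjusted p = 1).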

How the results depend on the processing

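The Anxa8 ratio ranged from -2.55 to -2.06 over 15 alternatives, below that of every other member each time. Pearson r between arrays, across genes, was 0.46 to 0.62 for 3 pairs and -0.06 to 0.26 for the other 3, lowest for replicates 2 and 4. Spearman correlations were lower, 0.22 to 0.58 for the former pairs and -0.32 to 0.04 for the latter. Calls moved more than values. Without a filter on dim probes 55 genes were lower and 31 higher, and 0 annexin and 0 partner genes passed (limma, with 6 and 7 at an unadjusted p under 0.05). In the deposited value table, fitted on all kept probes, 0 genes were lower and 1 higher, and 0 annexin and 0 partner genes passed (limma, with 957, 827, 5 and 6 at an unadjusted p under 0.05). After that outcome was seen, the fit was repeated on the 26059 kept probes with no value at 0. It called 198 genes lower and 135 higher, with Anxa8, Anxa13 and Trpv6 among them. With an intensity trend and robust variances 75 were lower and 37 higher, and 1 partner gene passed. With 8 separate channels and no replicate block 169 were higher. Without the dye term 266 were lower and 194 higher, and with a sex term 309 and 233. In both of these, 2 annexins passed (Anxa8 and Anxa11). Without one replicate, 155 to 853 genes were lower and 128 to 749 higher, with 1 to 4 annexin and 2 to 5 partner genes. The upper ends are without replicate 4, and without replicate 2 there were 508 and 429. The median annexin ratio was 0.0863 with median centring and 0.0609 with the mean of all kept probes, and median centring gave 3 annexins a dye effect. Among uncalled partner genes, Cpne1 changed sign with the mean of all kept probes (0.0164). Leaving out one replicate, Fpr1 ranged from -0.0757 to 0.0174, Ahnak from -0.32 to 0.0160, Esyt1 from -0.1528 to 0.0048 and Esyt2 from -0.0240 to 0.2621. The cause of these changes was not tested.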
